A study of Homo sapiens with 6 samples.

Results

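Cathepsins are the proteases of lysosomes and secretory granules, and cystatins are the small proteins that block the cysteine cathepsins. The gene set described here held 10 members of 36601 genes in the count table, chosen by symbol: the 8 cathepsin genes CTSB, CTSC, CTSD, CTSH, CTSL, CTSS, CTSW and CTSZ and the 2 cystatin genes CST3 and CST7. The libraries came from NK92, an IL-2-dependent line of human NK lymphoma. The cells carried either a control shRNA (shCtrl, 3 libraries) or an shRNA for stable knockdown of the lncRNA miR155HG (shmiR155HG, 3 libraries). Cells of both groups had received IL-2 at 1000 U/mL together with IL-12 at 10 ng/mL for 12 h, so the comparison concerns cytokine-stimulated cells throughout. No label says whether libraries of a group came from separate cultures, and p-values therefore measure the spread between these libraries, which may be technical. Both groups are bulk samples of 1 cell line, in which fewer cells with a transcript and less RNA per cell cannot be told apart.

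In cytotoxic lymphocytes several cathepsins serve the lytic granule. CTSC (cathepsin C, or dipeptidyl peptidase I) removes an N-terminal dipeptide from progranzymes and so activates them, and CTSH can do part of the same task. CTSW (cathepsin W, or lymphopain) is a protease made mainly by NK cells and cytotoxic T cells, and CST7 encodes cystatin F, an inhibitor that is targeted to granules and can block CTSC. CTSB and CTSL are broad-acting lysosomal cysteine proteases, CTSS is a cysteine protease best known for trimming the MHC class II invariant chain, CTSZ is a carboxypeptidase, and CTSD is an aspartic protease that cystatins do not block. CST3 encodes cystatin C, a secreted inhibitor.

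The 6 libraries held between 33454786 and 39157264 counts, and 12263 genes passed the study's filter of more than 1 CPM (counts scaled to library size) in at least 2 libraries. MIR155HG, the targeted gene, had shCtrl counts of 73, 67 and 62 against 28, 19 and 10 for shmiR155HG, in replicate order. It was at 29.2% of its shCtrl level in shmiR155HG cells (log2 fold change −1.78, SE 0.43, adjusted p = 0.00450, quasi-likelihood test of edgeR with Benjamini-Hochberg adjustment over all genes tested, as for every adjusted p of a gene below). It passed the filter through the shCtrl libraries, and in a fit without a filter its adjusted p was 0.00216. Of 11 NK cell markers 10 were tested, of which 4 were higher (IL2RB 0.34, EOMES 0.32, TBX21 0.27 and KLRC1 0.17 on the log2 scale) and 2 lower (NCR3 −0.24 and PRF1 −0.20). NCAM1, NKG7, KLRD1 and NCR1 were not called. The summed level of the list was 3008 to 3103 CPM in shCtrl and 3369 to 3448 CPM in shmiR155HG libraries. IL2RB alone went from a mean of 1006 CPM in shCtrl to 1270 CPM in shmiR155HG libraries. PAX5, the tested gene of 5 B cell markers, was higher by 0.49 on the log2 scale (adjusted p = 1.70e-09). The part of these marker differences in the values below was not tested. Several cathepsins are abundant in macrophages, and of 11 monocyte and macrophage markers 2 passed the filter (CD68 and CSF1R) and 3 were at 0 in every library (CD163, FCN1 and MS4A7). The summed level of that list was 13.2 to 14.7 CPM in shCtrl and 8.79 to 13.1 CPM in shmiR155HG libraries, and its part in the values below was not tested.

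Of the 10 members, 6 passed the filter and were tested: CTSC, CTSD, CTSS, CTSW, CTSZ and CST7. In shmiR155HG cells 3 of them fell (CTSC, CTSW and CTSS) and 1 rose (CTSD) when an adjusted p under 0.05 was required. Across the transcriptome, 8.02% of the genes tested were called lower and 7.26% higher. For the same 3 genes every shmiR155HG library lay below every shCtrl library, as for 15.6% of all genes tested, and for CTSD every shmiR155HG library lay above, as for 15.2% of all genes. CTSB, CTSH, CST3 and CTSL remained below the filter.

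**Figure D1:**
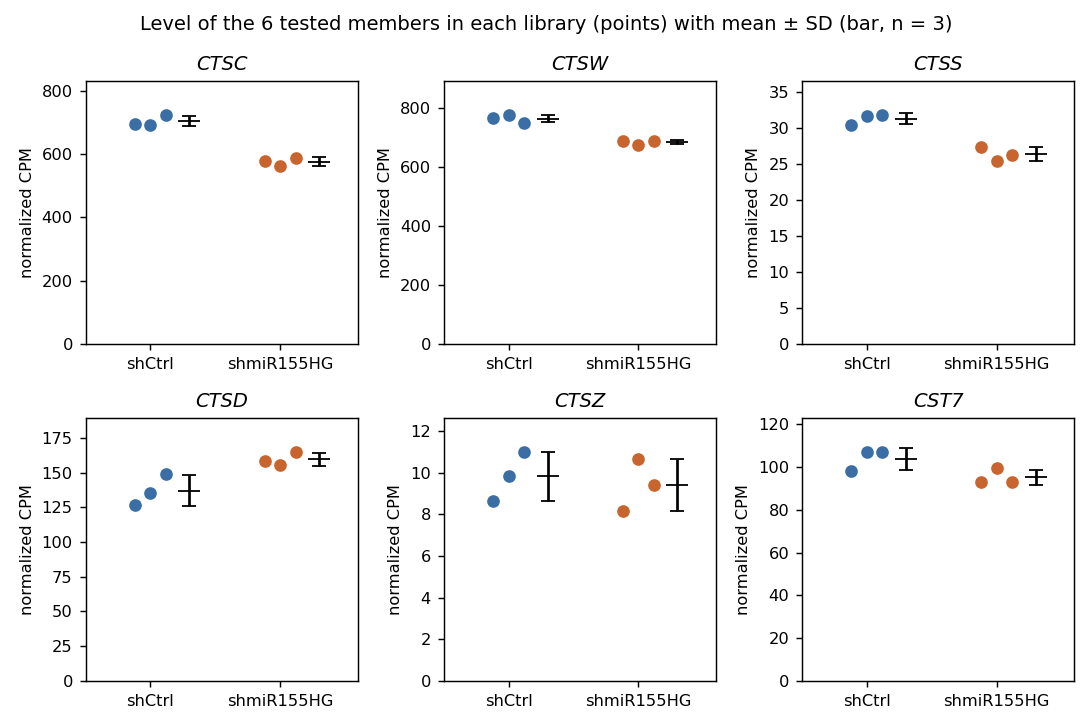
Normalized CPM of the 6 tested members in each library, with shCtrl in blue and shmiR155HG in orange and the mean with its SD (n = 3) beside the points. CTSC, CTSW and CTSS had no shmiR155HG library as high as the lowest shCtrl library, CTSD had the opposite order, and the groups overlapped for CTSZ and CST7.

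Per-library values are listed in the order of replicates 1, 2 and 3. CTSC (ENSG00000109861), the activator of granzymes, occupies positions 88265069 to 88359684 of chromosome 11 (hg38, minus strand), and its canonical transcript has 7 exons and 1870 nt. Readings of 694.7, 693.1 and 722.1 CPM for shCtrl stood against 577.2, 561.2 and 588.3 CPM for shmiR155HG. The groups were well apart, with means of 703.3 ± 16.3 CPM (SD, n = 3) and 575.6 ± 13.6 CPM (SD, n = 3). The log2 fold change was −0.29 (SE 0.032, 95% interval −0.36 to −0.22, adjusted p = 1.92e-07), which left 81.8% of the shCtrl level. This was the lowest adjusted p among the tested members, and the values with 1 library left out ran from −0.30 to −0.27.

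CTSW (ENSG00000172543), the lymphocyte-restricted cathepsin, lies on the plus strand of chromosome 11 from 65879809 to 65883741 with 10 exons and a canonical transcript of 1272 nt. The shCtrl libraries measured 765.5, 775.1 and 750.8 CPM, whereas those of shmiR155HG measured 687.7, 676.1 and 687.4 CPM. All shmiR155HG values lay below all shCtrl values, although the distance was small. The log2 fold change was −0.16 (SE 0.030, 95% interval −0.22 to −0.097, adjusted p = 0.000431), or 89.5% of the shCtrl level. Exons of FIBP overlap those of CTSW on the opposite strand, so some reads could belong to either gene if strand was not used in counting. FIBP was at 28.4 CPM in shCtrl and 33.2 CPM in shmiR155HG cells (log2 fold change 0.22, SE 0.084, adjusted p = 0.0716).

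CTSS (ENSG00000163131), the cathepsin of MHC class II processing, lies on the minus strand of chromosome 1 from 150730079 to 150765957, with 8 exons and 3936 nt. Readings of 30.4, 31.7 and 31.7 CPM for shCtrl stood against 27.3, 25.4 and 26.3 CPM for shmiR155HG. The groups did not overlap, but the counts were far fewer than for CTSC or CTSW and the interval was wider. The log2 fold change was −0.25 (SE 0.084, 95% interval −0.42 to −0.074, adjusted p = 0.0456), or 84.2% of the shCtrl level. This call was lost whichever library was left out, with adjusted p between 0.0585 and 0.144 and values from −0.28 to −0.22.

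CTSD (ENSG00000117984), the aspartic protease, was the tested member that rose. It lies on the minus strand of chromosome 11 from 1752752 to 1764573 with 9 exons and 2055 nt. The shCtrl libraries measured 126.5, 135.3 and 148.6 CPM, whereas those of shmiR155HG measured 158.1, 155.4 and 164.7 CPM. The lowest shmiR155HG library lay above the highest shCtrl library, shCtrl replicate 3, which was the nearest to the shmiR155HG group. The log2 fold change was 0.22 (SE 0.050, 95% interval 0.12 to 0.32, adjusted p = 0.00253), or 116.5% of the shCtrl level, and it was 0.29 without shCtrl replicate 3 and 0.17 without shCtrl replicate 1. The lncRNA gene PRADX overlaps exons of CTSD on the opposite strand and had between 2 and 43 counts per library. A protein-coding gene on the same strand that also shares exons with CTSD (ENSG00000250644) was not analysed here, and its reads could be counted as CTSD.

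CTSZ (ENSG00000101160), the carboxypeptidase, lies on the minus strand of chromosome 20 from 58985686 to 59008238 with 6 exons and 1502 nt. Readings of 8.64, 9.84 and 11.0 CPM for shCtrl stood against 8.16, 10.6 and 9.39 CPM for shmiR155HG. The groups were interleaved, and the spread within each was as large as the distance between them. The log2 fold change was −0.064 (SE 0.15, 95% interval −0.38 to 0.25, adjusted p = 0.840), so neither a fall of the size seen for CTSC nor a rise of the size seen for CTSD lay outside the interval. With 1 library left out the value ran from −0.16 to 0.029 and so changed sign.

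CST7 (ENSG00000077984), the gene of cystatin F, lies on the plus strand of chromosome 20 from 24949269 to 24959928 with 4 exons and 891 nt. The shCtrl libraries measured 98.0, 106.8 and 107.0 CPM, whereas those of shmiR155HG measured 93.2, 99.4 and 92.8 CPM. The groups overlapped, since shmiR155HG replicate 2 exceeded shCtrl replicate 1. The log2 fold change was −0.13 (SE 0.053, 95% interval −0.24 to −0.018), and with an adjusted p of 0.111 it did not pass the threshold. This adjusted p was between 0.0553 and 1 in the alternative fits.

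**Figure D2:**
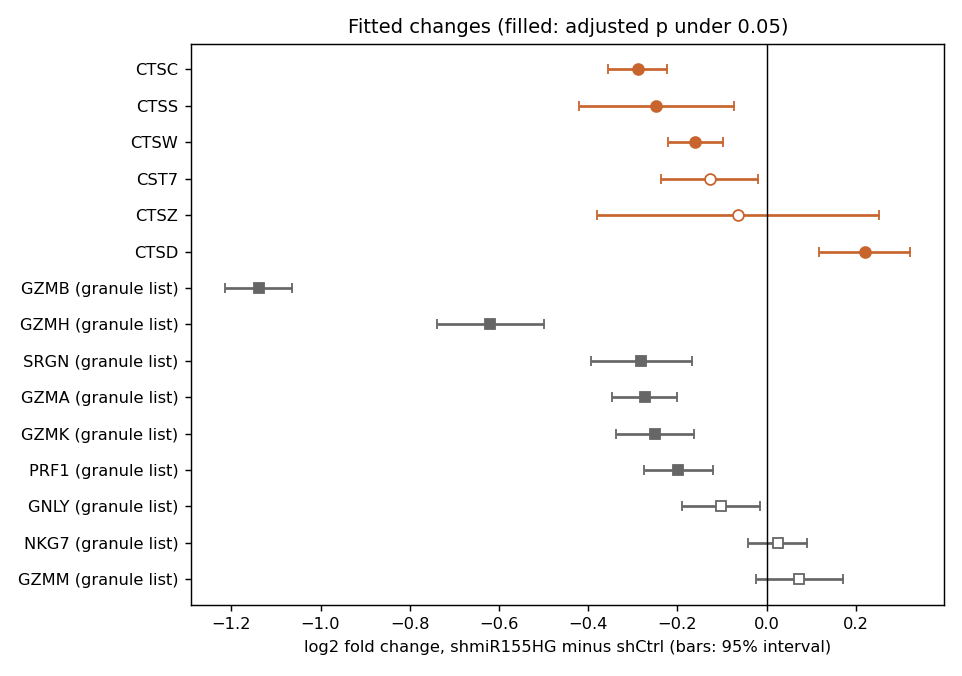
Log2 fold changes of the 6 tested members (orange circles) and of the 9 granule genes (grey squares) with 95% intervals, where filled symbols mark an adjusted p under 0.05. CTSD lies right of 0 and the 5 other members left of it, among them the open symbols of CST7 and CTSZ, while GZMB at −1.14 and GZMH at −0.62 lie farther left than any member.

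The other 4 members stayed below the filter, with few or no counts. CTSL (ENSG00000135047), on chromosome 9 from 87724051 to 87731469, had 0 counts in all 6 libraries, and a count of 0 allows up to 3 counts, or 0.0770 to 0.0897 CPM depending on the library (counting error only). CST3 (ENSG00000101439), on chromosome 20 from 23626706 to 23638473, had 4 counts in shCtrl replicate 2 and 0 in the 5 other libraries. Both genes are expressed in many tissues, and in these NK92 libraries no comparison between groups could be made for them.

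CTSB (ENSG00000164733), on chromosome 8 from 11842524 to 11869533, had shCtrl counts of 22, 28 and 44, against 23, 17 and 7 for shmiR155HG. The groups overlapped, because shmiR155HG replicate 1 exceeded shCtrl replicate 1. In a fit without a filter its log2 fold change was −0.96 (SE 0.62, adjusted p = 0.431). CTSH (ENSG00000103811), the other aminopeptidase able to process progranzymes, lies on chromosome 15 from 78921058 to 78949574 and had 14, 24 and 10 counts against 5, 24 and 16 in the same order. Its libraries were interleaved, and the same fit gave −0.045 (SE 0.80, adjusted p = 0.992). At these depths a moderate change of CTSB or CTSH was not detectable.

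Levels can be compared between genes only per transcript length, here as normalized CPM per kb of the canonical transcript. In shCtrl cells CTSW was the most abundant member at 600.5 ± 9.64 CPM per kb (SD, n = 3), followed by CTSC at 376.1 ± 8.72, CST7 at 116.7 ± 5.78 and CTSD at 66.6 ± 5.41 (SD, n = 3 each). CTSS at 7.94 ± 0.188 and CTSZ at 6.54 ± 0.781 CPM per kb came next, and CTSB at 0.220 ± 0.0765 and CTSH at 0.198 ± 0.0972 did not differ beyond their spread. The order was the same in shmiR155HG cells for the first 4, with 537.5 ± 5.18 for CTSW, 307.8 ± 7.28 for CTSC, 106.8 ± 4.15 for CST7 and 77.6 ± 2.34 CPM per kb for CTSD (SD, n = 3 each). There CTSS, at 6.69 ± 0.246, and CTSZ, at 6.26 ± 0.827 CPM per kb, also lay within their spread of each other. The place of CTSC depends on the transcript chosen: per kb of the longest annotated transcript it was at 93.0 in shCtrl cells, below CST7 at 116.7, and the shares and ratios below hold for canonical transcripts. Of the summed level of all 10 members per kb, CTSW took 51.1% in shCtrl and 51.5% in shmiR155HG cells, and CTSC took 32.0% and 29.5%. The transcripts of CTSW and CTSC together thus made up most of the family in both groups. The summed level was 1175 ± 14.0 CPM per kb in shCtrl and 1043 ± 9.88 CPM per kb in shmiR155HG cells (SD, n = 3 each).

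**Figure D3:**
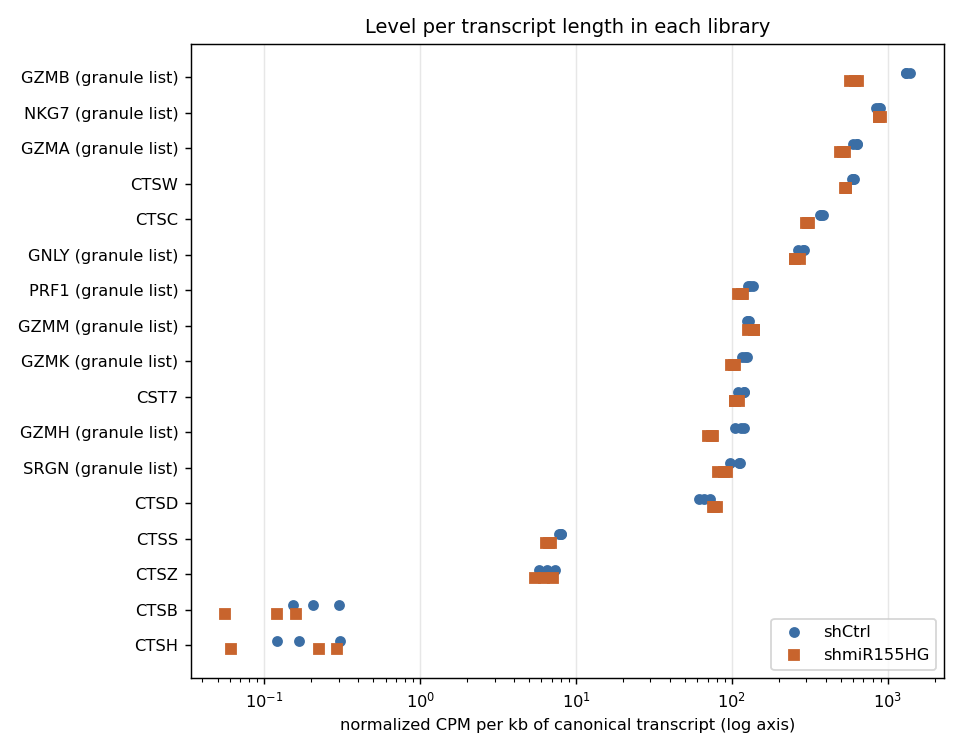
Normalized CPM per kb of canonical transcript on a log axis for 8 members and the 9 granule genes, 1 symbol per library, ordered by the shCtrl mean. CTSW and CTSC sit among the granule genes, CTSS and CTSZ sit near 7 CPM per kb, CTSB and CTSH lie under 1, and CST3 and CTSL are not drawn because they are at 0 in most or all libraries.

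CST7 did not pass the test while its target CTSC fell, the 95% intervals of their log2 fold changes overlapped, and the difference between them was not tested. Per kb of canonical transcript, the ratio of CST7 to CTSC stood at 0.296, 0.324 and 0.311 for the shCtrl libraries, against 0.339, 0.372 and 0.331 for those of shmiR155HG. Each shmiR155HG ratio lay above each shCtrl ratio, with means of 0.310 ± 0.0137 and 0.347 ± 0.0216 (SD, n = 3 each), and no test was made on this score over members. The ratio of CTSD to CTSC per kb was 0.177 ± 0.0108 in shCtrl and 0.252 ± 0.00277 in shmiR155HG cells (SD, n = 3 each). A ratio of CST3 to CTSB has no meaning here because CST3 was at 0 in nearly every library.

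The substrates and companions of these proteases in the granule were described from a list of 9 genes, all of which were tested. In this list 6 genes were lower and none was higher, whereas 8.02% of all genes tested were lower and 7.26% higher. The median log2 fold change was −0.25 against 0.00097 over all genes tested. The list was chosen with earlier results of these data known, so these counts are only a description. GZMB, the granzyme with the largest fall, went from 1195 ± 42.5 to 542.9 ± 29.9 CPM (SD, n = 3 each), which on the log2 scale was −1.14 (SE 0.036, adjusted p = 7.03e-19). GZMH, a close paralog of GZMB, had −0.62 (SE 0.058, adjusted p = 1.03e-08), and SRGN, the proteoglycan that packs granule proteases, had −0.28 (SE 0.055, adjusted p = 0.000667). The values of GZMA, at −0.27 (SE 0.035, adjusted p = 2.25e-06), and GZMK, at −0.25 (SE 0.043, adjusted p = 0.000122), were close to that of CTSC. PRF1, the pore former, had −0.20 (SE 0.038, adjusted p = 0.000419). GNLY (−0.10, adjusted p = 0.106), NKG7 (0.024, adjusted p = 0.689) and GZMM (0.074, adjusted p = 0.343) did not pass. Per kb, CTSC was at 0.281 ± 0.0134 of GZMB in shCtrl and at 0.506 ± 0.0161 of GZMB in shmiR155HG cells (SD, n = 3 each). The CTSC transcript thus became more abundant relative to the GZMB transcript while both fell. This ratio takes the granzyme with the largest fall and does not describe the granzymes as a set. GZMA and GZMK had values close to that of CTSC, GZMM was not called, and ratios to these 3 were not computed.

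Other genes of peptidases and their inhibitors, not all of them lysosomal, are read against the 7.26% higher and 8.02% lower of all genes tested. Of 15 other cathepsins and lysosomal peptidases, 9 were tested, with 1 higher, 1 lower and a median of 0.040. LGMN, which encodes legumain, a protease that can process cathepsins, had shCtrl counts of 36, 23 and 17, against 59, 81 and 61 for shmiR155HG (log2 fold change 1.46, SE 0.41, adjusted p = 0.0150). It passed the filter through the shmiR155HG libraries, where it is high, so the 1 higher call of this list is no support for a direction. In a fit without a filter its adjusted p was 0.0123, and in the filtered fit the call was lost without shCtrl replicate 2 (adjusted p = 0.0512), shCtrl replicate 3 (0.0630) or shmiR155HG replicate 2 (0.0688). DPP4, a surface peptidase, had −0.11 (SE 0.039, adjusted p = 0.0469), a call that 11 of 17 alternatives did not keep, and without shmiR155HG replicate 2 its adjusted p was 0.283. Of 23 other cystatins and peptidase inhibitors, 4 were tested and 13 were at 0 in every library. SERPINB1, an inhibitor of granule serine proteases, was the 1 that was called, at −0.25 (SE 0.046, adjusted p = 0.000266).

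Further lists covered the genes that bring cathepsins to lysosomes and those that keep the compartment acid, and their counts are read against the same shares of all genes. Among 16 tested genes of sorting and of lysosomal transcription factors, 1 was lower, with a median of 0.013. That gene was GGA2, an adaptor for mannose 6-phosphate receptors (−0.18, SE 0.041, adjusted p = 0.00226), and the regulator of lysosomal genes TFEB had −0.042 (SE 0.19, adjusted p = 0.922). Of 28 tested genes for lysosomal membrane proteins and hydrolases, 1 was higher and 4 were lower, with a median of −0.064. The higher gene was GRN, which encodes progranulin (0.44, SE 0.11, adjusted p = 0.00808), with adjusted p of 0.0593 without shCtrl replicate 2 and 0.0869 without shmiR155HG replicate 3. Among the lower ones were ASAH1, acid ceramidase (−0.30, SE 0.089, adjusted p = 0.0191), and SCARB2, a receptor that carries glucocerebrosidase (−0.25, SE 0.075, adjusted p = 0.0232). The calls of ASAH1 and SCARB2 were lost when single libraries were left out, with adjusted p up to 0.119 without shmiR155HG replicate 1 and up to 0.132 without shmiR155HG replicate 2. Of 16 tested subunits of the vacuolar ATPase, 1 was higher, ATP6V0D1 (0.24, SE 0.075, adjusted p = 0.0268), and 1 was lower, ATP6V1C1 (−0.22, SE 0.047, adjusted p = 0.00158), and the call of ATP6V0D1 was lost in 4 of the 6 fits without 1 library, with adjusted p up to 0.124 without shCtrl replicate 1.

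**Figure D4:**
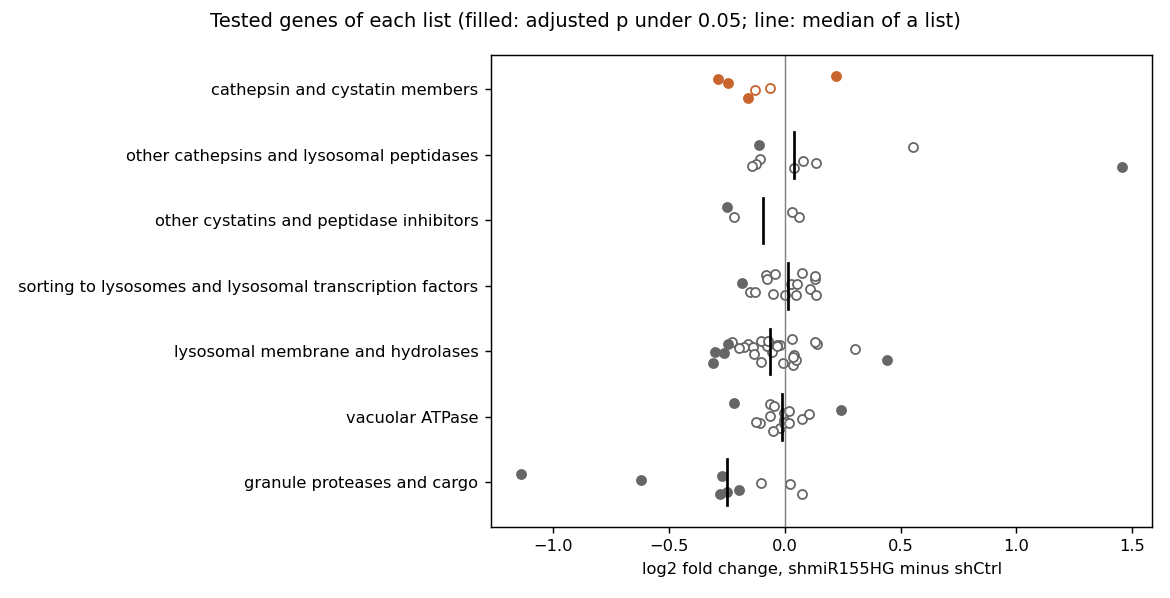
Log2 fold changes of every tested gene in each list, with the 6 tested members in orange, filled symbols for an adjusted p under 0.05 and a line at the median of each list of other genes. The granule list lies mostly left of 0, with GZMB at −1.14, and the lists of sorting genes and vacuolar ATPase subunits scatter around 0.

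Promoter sequences of 300 bases, from 250 bases before to 50 bases after the start, were taken from RefSeq (GRCh38.p14) for CST3, CTSC, CTSD, CTSH, CTSL and CTSZ. CTSB, CTSS, CTSW and CST7 have no entry in that table. Each window was searched on both strands for CACGTG, the core of the element bound by TFEB and its relatives, and for TTCNNNGAA, a form of the site bound by STAT proteins. CACGTG was found once among these 6 windows, in CTSD, where it begins at base 204 of the window, and it occurs in 10.4% of the 9138 promoters matched to tested genes. TTCNNNGAA was found in none of the 6, and in 6.35% of the 9138. A match is a description of letters and not a measured site. The windows of CTSD (chr11:1763878-1764177, minus strand, with the CACGTG match in capitals) and CTSC (chr11:88337687-88337986, minus strand, with no match) are shown because these 2 called members moved in opposite directions:
CTSD promoter: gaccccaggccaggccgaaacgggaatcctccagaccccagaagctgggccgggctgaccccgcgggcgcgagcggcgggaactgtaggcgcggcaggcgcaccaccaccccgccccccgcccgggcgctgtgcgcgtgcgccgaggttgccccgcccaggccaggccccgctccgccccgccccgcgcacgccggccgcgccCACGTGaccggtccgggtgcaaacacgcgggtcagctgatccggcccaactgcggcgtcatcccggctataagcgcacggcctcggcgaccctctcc
CTSC promoter: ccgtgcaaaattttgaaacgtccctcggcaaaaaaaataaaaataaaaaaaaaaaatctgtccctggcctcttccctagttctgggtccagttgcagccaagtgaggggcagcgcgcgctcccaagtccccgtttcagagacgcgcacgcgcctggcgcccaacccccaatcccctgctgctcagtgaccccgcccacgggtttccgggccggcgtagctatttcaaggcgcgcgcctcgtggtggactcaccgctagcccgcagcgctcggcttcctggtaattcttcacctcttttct

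MIR155HG is also the host of miR-155, so the 3′UTRs of the members were searched for the complement of its seed. The paper reports that the lncRNA acted independently of miR-155 and proposes a different miRNA as its binding partner. Sites of that other miRNA were not searched here. The mature miR-155-5p is printed from RefSeq with its seed, bases 2 to 8, in capitals:
hsa-miR-155-5p: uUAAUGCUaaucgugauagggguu
The 7-base match AGCATTA occurs in the 3′UTR of 11.9% of the 10763 tested genes that have one in GENCODE, and in none of the 10 members. Its last 6 bases, GCATTA, occur in 26.1% of those genes and in 1 member, CTSS, whose 3′UTR of 2858 nt is the longest of the 10. In CTSS the next letter is an A, which gives another 7-base form, GCATTAA. That form was not counted over all genes. The stretch around this match lies at chr1:150730843-150730872 on the minus strand of hg38, with the match in capitals:
CTSS 3′UTR: ttctttataaatGCATTAaataagagttaa
CTSC and CTSW, which fell, have 3′UTRs of 414 and 123 nt with neither match. The libraries hold no measurement of mature miR-155.

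**Figure D5:**
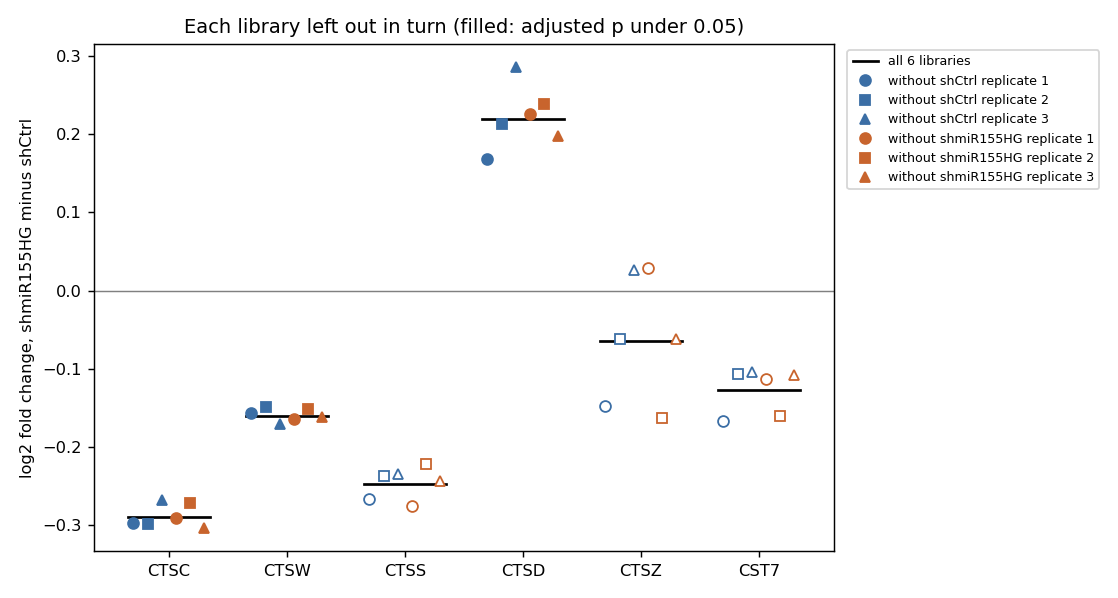
Log2 fold change of each tested member with all 6 libraries (line) and with each library left out in turn (symbols, filled for an adjusted p under 0.05). CTSC, CTSW and CTSD keep their direction and stay filled in all 6 fits, CTSS is open in all 6, and CTSZ crosses 0.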

How the data were processed

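RNA from 6 libraries of NK92 cells (3 shCtrl, 3 shmiR155HG) was captured with oligo(dT) beads. The authors used HISAT2 for alignment to hg38 and StringTie with prepDE.py3 for quantification, and deposited whole-number counts per gene without normalization. prepDE.py3 derives counts from coverage and an assumed read length, so a count may not stand for exactly 1 read. Strand use and annotation release are not given in the sources used here. The treatment labels of shmiR155HG replicates 2 and 3 name the gene with other numbers, and their titles were followed.

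The tests were run with edgeR 4.0.16 under R 4.3.3 (CPM over 1 in at least 2 libraries, TMM scaling, robust quasi-likelihood test, Benjamini-Hochberg adjustment over 12263 genes, adjusted p under 0.05). SE is the log2 fold change divided by the square root of F. TMM factors lay between 0.9966 and 1.0026. Positions, transcript lengths and 3′UTRs come from GENCODE 44 for hg38, by gene ID. Named were the members, the targeted gene, all granule genes and, per other list, up to 4 genes with the lowest adjusted p under 0.05, of which 1 is not reported here. The members and lists were chosen with earlier results of these data known. The test was checked on simulated data. Alternatives used limma 3.58.1, DESeq2 1.42.0, other scalings, filters and tests, a replicate block and each library left out.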

Additional observations from a re-analysis of the deposited data

How the results depend on the processing

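CTSC, CTSW and CTSD kept their direction in all 17 alternatives, and with any 1 library left out their calls stayed, with values from −0.30 to −0.27, from −0.17 to −0.15 and from 0.17 to 0.29. Of 102 values of the 6 tested members under the alternatives, 86 stayed on their side of the threshold, 16 lost a call and no called value changed direction. By the exact test under the study's rule (P under 0.01, fold over 1.2), 1 member was lower (CTSC) and 0 higher. The fitted values of −0.16 for CTSW, −0.25 for CTSS and 0.22 for CTSD (unadjusted P = 0.000114) fall short of that fold. Over all genes this rule, as applied here, called 551 higher and 466 lower, and in the lists 7 lower. The paper reports more genes in each direction, and the reason for the difference was not tested. With glmTreat, which tests against a fold of 1.2, 0 members were called in either direction, and 0 at an unadjusted p under 0.05 (CTSC −0.29, CTSW −0.16, CTSS −0.25, CTSD 0.22), with 106 genes higher and 78 lower over all genes and 0 higher and 2 lower in the lists. CTSS also lost its call without a filter (−0.25, adjusted p = 0.0569), in limma-voom (−0.25, adjusted p = 0.0516) and with each library left out (−0.28 to −0.22), and the cause was not tested. With 1 library left out, members called lower numbered 2 in every fit and higher 1, genes of the lists 1 to 4 higher (1 without shCtrl replicate 2 or 3 or shmiR155HG replicate 2 or 3, against 3) and 11 to 14 lower (against 14), and all genes 580 to 891 higher and 674 to 917 lower, lowest without shmiR155HG replicate 2 for the higher genes. No pairing by replicate number was seen: deviations of same-numbered libraries correlated at −0.018, 0.00098 and 0.0035, and not every library correlated best with its own number. These values cannot show whether same-numbered libraries were handled together. With a replicate block, 829 genes were higher and 909 lower, and CTSS had −0.25 (adjusted p = 0.0589). Per kb of the longest annotated transcript instead of the canonical one, the shCtrl level was 93.0 for CTSC, 31.0 for CTSD, 7.67 for CTSS, 552.3 for CTSW and 0.905 for CTSZ, which puts CST7 (116.7) above CTSC. Few counts limit CTSB, CTSH, CST3 and CTSL.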

Other observations

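Further cathepsin genes were looked at after their values were seen. CTSO, a cysteine cathepsin below the filter, had shCtrl counts of 23, 20 and 16 (replicate order), against 11, 0 and 0 for shmiR155HG. Every shmiR155HG library lay below every shCtrl library, an order found for 15.6% of all genes tested. CTSO itself was not tested in the filtered fit. The fit without a filter included it, but its value there is not reported here. The CTSO means of 0.517 CPM in shCtrl and 0.0956 CPM in shmiR155HG cells rest on few counts. CTSK, the cathepsin of bone resorption, had 34, 39 and 54 counts against 43, 61 and 73 in the same order, with overlapping groups (log2 fold change 0.55, SE 0.39, adjusted p = 0.392 by edgeR). CTSA, a serine carboxypeptidase, had 3319, 3455 and 3453 counts against 3099, 2988 and 2827 (log2 fold change −0.14, SE 0.057, adjusted p = 0.101 by edgeR). Its shmiR155HG libraries also all lay below its shCtrl libraries in normalized CPM. CTSE, CTSF, CTSG and CTSV had 0 counts in every library.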
